A study of Mus musculus with 9 samples.

Results

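NRF2, the product of Nfe2l2, is the transcription factor that switches on the antioxidant response, and 10 genes of this response were examined in mouse striatal cells that carry normal or expanded huntingtin. They were taken by symbol from the 36410 genes listed and comprise the regulators Nfe2l2 and Keap1, the glutathione genes Slc7a11, Gclc, Gclm and Gsr, the thioredoxin and sulfiredoxin genes Txnrd1 and Srxn1, and Nqo1 and Hmox1. All 10 symbols were found, and all 10 genes passed edgeR's filter on low counts, as did 13508 of the listed genes.

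The RNA came from 3 immortalized striatal lines of C57/BL6 mice that were derived from embryos, in a knock-in model at the huntingtin gene. The study describes the embryos of the control line as wild type. Control cells, STHdhQ7/Q7, have 7 glutamine repeats on each allele, HD-het cells, STHdhQ7/Q111, have 7 on one allele and 111 on the other, and HD-homo cells, STHdhQ111/Q111, have 111 on each. Because 1 line stands for each genotype, effects of genotype and of line cannot be told apart. No treatment was named for any line. There were 3 RNA-seq libraries per line, and because the labels do not say whether they came from separate cultures, the p-values measure the spread between these libraries, which may be technical.

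In unstressed cells KEAP1, an adaptor of a CUL3 ubiquitin ligase, holds NRF2 and sends it to the proteasome. Oxidants and electrophiles modify cysteines of KEAP1, NRF2 then escapes, enters the nucleus, pairs with a small MAF protein and binds antioxidant response elements near genes for glutathione synthesis, thioredoxin reduction, quinone reduction and haem breakdown. Because this control acts mainly on the protein, the mRNA levels below do not measure the amount or activity of NRF2.

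The antioxidant response element has the core TGACNNNGC, and the promoters of the members were searched for it on both strands, as GCNNNGTCA on the other strand, to show which members carry these letters close to their start. The promoter table of RefSeq on GRCm38.p6 gives 250 bases before and 50 after each start and held 9 promoters of 7 members, namely Nfe2l2, Keap1, Slc7a11, Gclm, Txnrd1, Srxn1 and Nqo1. Gclc, Gsr and Hmox1 had no entry. The core was found in 4 of the 9 promoters, those of Nfe2l2, Gclm, Srxn1 and 1 of the 3 of Txnrd1, against 12.4% of all 32851 promoters and 14.3% of the 13297 promoters of tested genes. Each match is printed in the direction of its gene with 10 bases on either side and the core in capitals:
Nfe2l2, chr2:75704885-75704913, minus strand: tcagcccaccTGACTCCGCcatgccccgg
Gclm, chr3:122245413-122245441, plus strand: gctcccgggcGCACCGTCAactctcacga
Txnrd1, chr10:82859104-82859132, plus strand: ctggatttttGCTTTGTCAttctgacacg
Srxn1, chr2:152105542-152105570, plus strand: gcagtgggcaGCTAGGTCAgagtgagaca
The core began 240 bases before the start in Nfe2l2, 134 before in Gclm and 92 before in Txnrd1, and in Srxn1 it lay after the start, at base 29. In Nfe2l2 it read TGACNNNGC along the gene's own strand, and in the other 3 it read GCNNNGTCA. A match is a description of the letters and not evidence of binding, and the absence of a match from the windows of Keap1, Slc7a11, Nqo1 and the other 2 of Txnrd1 says only that these letters are not in those windows.

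The values that follow are normalized mRNA counts per megaread (CPM), scaled by edgeR's TMM method, from libraries of 29507665 to 41197931 counts, in which 3 counts correspond to 0.0710 to 0.101 CPM. The lines were compared by a two-sided quasi-likelihood test in edgeR, with p-values adjusted by Benjamini-Hochberg over all 13508 tested genes, and a gene was called where its adjusted p was below 0.05. Replicate libraries differed by more than counting noise in every pair, with a mean variance per gene from 2.38 times that of counting in control replicates 1 and 2 to 44.9 times in HD-homo replicates 2 and 3. Of 6 neuron markers only Map2 and Tubb3 were above 3 counts in any library, and Drd1 had no count. The 6 smooth muscle and pericyte markers summed to 2397 to 2806 CPM in control, 7219 to 7910 CPM in HD-het and 223 to 325 CPM in HD-homo cells, with Rgs5 at 3 counts or fewer, and the 6 fibroblast markers to 2485 to 3376, 7514 to 8723 and 6370.1 to 6846 CPM, with Lum at 0 in control and HD-het cells. The members of these lists did not move together: Acta2 and Tagln made up most of the smooth muscle sum in control and HD-het cells, while Pdgfrb had a mean of 92.7 CPM in control and 145.7 CPM in HD-homo cells. Col1a1 made up most of the fibroblast sum, while Col1a2 had a mean of 73.4 CPM in control, 3.15 CPM in HD-het and 1494 CPM in HD-homo cells. Among genes of neural progenitors, Nes had means of 526.3, 839.5 and 28.4 CPM in the same order, Sox2 128.1, 82.9 and 5.48 CPM, and Pax6 32.1, 48.2 and 0.132 CPM. The lines therefore differed in such markers as well, and the part of this in the results below was not tested. In bulk RNA, fewer cells of a type and less RNA per cell cannot be told apart.

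Nfe2l2 mRNA was higher in HD-het cells than in both other lines. Normalized Nfe2l2 levels were 86.7, 87.3 and 86.3 CPM in control replicates 1 to 3, 125, 134 and 113 CPM in HD-het cells and 76.0, 84.6 and 84.0 CPM in HD-homo cells. Every HD-het library lay above every library of the other lines, and the HD-homo libraries lay just under the narrow control range. Nfe2l2 rose 1.43-fold in HD-het cells (log2 fold change 0.51, SE 0.0697, adjusted p = 6.4e-05) and was 0.659 times as high in HD-homo as in HD-het cells (log2 fold change -0.60, SE 0.0697, adjusted p = 1.3e-05). Between HD-homo and control cells the log2 fold change was -0.09 (95% interval -0.24 to 0.06, adjusted p = 0.291), which was not called although the libraries did not overlap.

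Keap1, which encodes the repressor of NRF2, was not called in any comparison. Its levels were 42.8, 41.3 and 47.7 CPM in control cells, 46.5, 44.1 and 49.7 CPM in HD-het cells and 45.1, 46.0 and 44.0 CPM in HD-homo cells, so that the libraries of the 3 lines overlapped. The log2 fold change against control was 0.09 in HD-het cells (95% interval -0.07 to 0.25, adjusted p = 0.280) and 0.04 in HD-homo cells (-0.12 to 0.19, adjusted p = 0.686), and between the HD lines it was -0.06 (-0.21 to 0.10, adjusted p = 0.501).

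**Figure D1:**
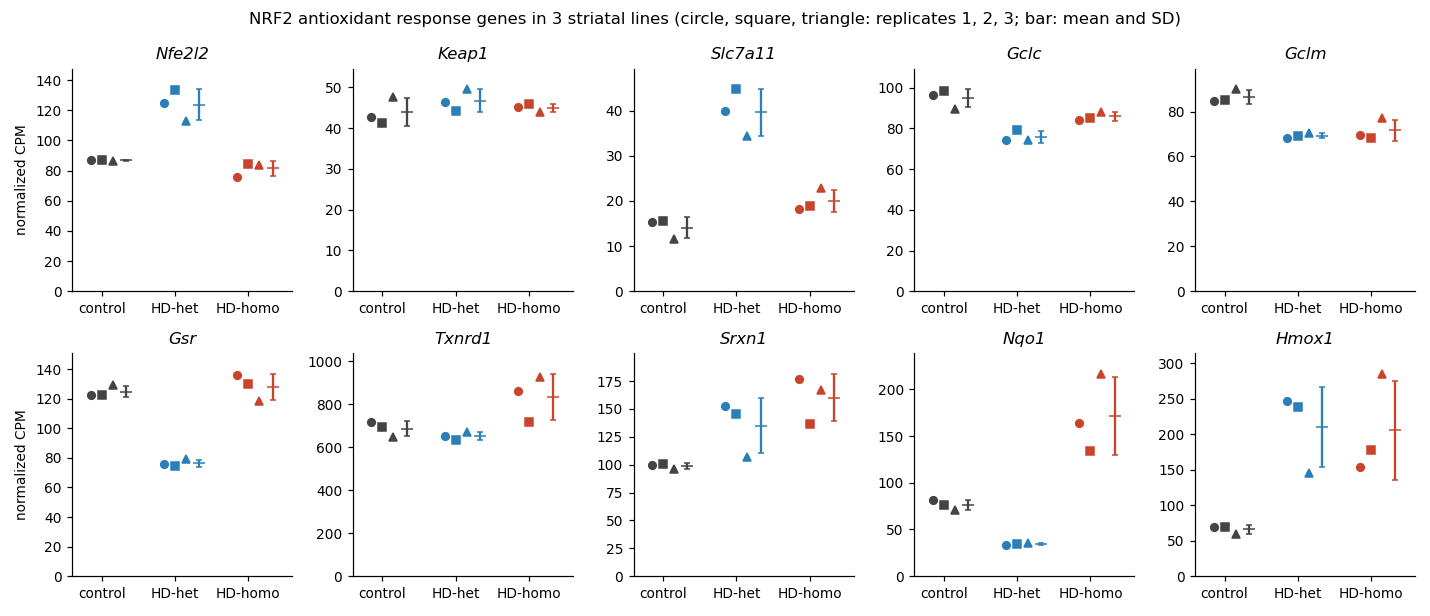
Normalized CPM of the 10 genes in the 3 lines, on linear axes that start at 0 and differ between panels. Circles, squares and triangles are replicates 1, 2 and 3, and the bar beside them is the mean and SD of the 3 libraries. Nqo1 is lowest in HD-het cells, with a mean of 34.7 CPM, and highest in HD-homo cells, with 172 CPM, while Hmox1 is above control in all 6 HD libraries and its replicates spread widely.

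The genes that supply and recycle glutathione did not move together. Slc7a11 rose in both HD lines, Gclc and Gclm fell in both, and Gsr fell in HD-het cells, with no call in HD-homo cells. Slc7a11 encodes the cystine carrier of system xc-, which brings in the cysteine that limits glutathione synthesis. Its levels were 15.3, 15.5 and 11.5 CPM in control cells, 39.8, 44.8 and 34.4 CPM in HD-het cells and 18.2, 18.9 and 22.8 CPM in HD-homo cells. The lines formed 3 separate bands, with HD-het cells on top. Slc7a11 was 2.82-fold higher in HD-het than in control cells (log2 fold change 1.49, SE 0.136, adjusted p = 3.1e-06), and 1.42-fold higher in HD-homo cells (log2 fold change 0.50, SE 0.137, adjusted p = 0.00898). HD-homo cells had 0.503 times the HD-het level (log2 fold change -0.99, SE 0.133, adjusted p = 4.1e-05).

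Gclc and Gclm encode the catalytic and the modifier subunit of glutamate-cysteine ligase, the enzyme of the rate-limiting step of glutathione synthesis. Gclc stood at 96.6, 98.4 and 89.7 CPM in control cells, 74.2, 79.3 and 74.4 CPM in HD-het cells and 84.3, 85.2 and 88.2 CPM in HD-homo cells. Gclm stood at 84.7, 85.0 and 90.1 CPM, 68.3, 69.0 and 70.6 CPM, and 69.7, 68.2 and 77.1 CPM in the same lines. For both subunits all control libraries were above all HD libraries, and HD-het and HD-homo libraries were separate for Gclc but mixed for Gclm. In HD-het cells the subunits fell by nearly the same amount, Gclc to 0.800 times (log2 fold change -0.32, SE 0.0569, adjusted p = 4.3e-04) and Gclm to 0.801 times the control level (log2 fold change -0.32, SE 0.0602, adjusted p = 6.7e-04).

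In HD-homo cells Gclm fell to 0.828 times the control level (log2 fold change -0.27, SE 0.0601, adjusted p = 0.00240) and Gclc to 0.905 times (log2 fold change -0.14, SE 0.0567, adjusted p = 0.0475). The call on Gclc was close to the threshold and was lost in 9 of 18 alternative analyses, whose adjusted p over all 18 ran from 0.0198 to 0.168. Without single libraries, control replicate 1 or 2, HD-het replicate 1 or HD-homo replicate 1 or 2, the log2 fold change lay at -0.13, -0.12, -0.14, -0.13 and -0.14 and was not called. Between HD-homo and HD-het cells Gclc differed by 0.18 on the log2 scale (SE 0.0568, adjusted p = 0.0149), a call that was lost without HD-het replicate 1 (0.16, adjusted p = 0.0577) or without the 3 libraries numbered 3 (0.14, adjusted p = 0.0627), and Gclm by 0.05 (95% interval -0.08 to 0.18, adjusted p = 0.492).

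Gsr encodes glutathione reductase, which returns oxidized glutathione to its reduced form with NADPH. Gsr levels were 123, 122 and 129 CPM in control cells, 75.8, 74.4 and 78.9 CPM in HD-het cells and 136, 130.2 and 119 CPM in HD-homo cells. The HD-het libraries were far under the other 6, whose ranges overlapped. Gsr fell to 0.612 times the control level in HD-het cells (log2 fold change -0.71, SE 0.0616, adjusted p = 2.1e-06) and HD-homo cells had 1.68 times the HD-het level (log2 fold change 0.75, SE 0.0616, adjusted p = 8.2e-07). The HD-homo cells differed from control by 0.04 (95% interval -0.10 to 0.17, adjusted p = 0.608).

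Among the thioredoxin genes, Srxn1 rose in both HD lines and Txnrd1 in HD-homo cells. Txnrd1 encodes the cytosolic thioredoxin reductase and had the highest CPM of the members. It was at 715, 694 and 649 CPM in control cells, 653, 635 and 670.1 CPM in HD-het cells and 861, 716 and 926 CPM in HD-homo cells. HD-homo replicate 2 was only just above the highest control library, whereas replicates 1 and 3 were well above it. Txnrd1 rose 1.22-fold in HD-homo cells (log2 fold change 0.28, SE 0.0863, adjusted p = 0.0157) and was 1.28-fold above the HD-het level there (log2 fold change 0.35, SE 0.0864, adjusted p = 0.00327). Its log2 fold change in HD-het cells was -0.07 (95% interval -0.26 to 0.12, adjusted p = 0.485). The call against control was lost without control replicate 3 (0.24, adjusted p = 0.0620) or without HD-homo replicate 3 (0.20, adjusted p = 0.0607). Without the 3 libraries numbered 3 the log2 fold change was 0.16 (adjusted p = 0.143). The span of Eid3 overlaps that of Txnrd1 on the same strand, but no stretch of 50 bases in the Txnrd1 transcripts occurs in those of another gene. Eid3 was also higher in HD-homo cells (log2 fold change 0.88, adjusted p = 0.00669).

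Srxn1 encodes sulfiredoxin, which repairs overoxidized peroxiredoxins. Its levels were 99.9, 101 and 96.1 CPM in control cells, 153, 146 and 107 CPM in HD-het cells and 177, 136 and 167 CPM in HD-homo cells. All 6 HD libraries were above control, HD-het replicate 3 by little, and the HD lines overlapped. Srxn1 rose 1.37-fold in HD-het cells (log2 fold change 0.45, SE 0.127, adjusted p = 0.00885) and 1.62-fold in HD-homo cells (log2 fold change 0.70, SE 0.127, adjusted p = 6.9e-04). The HD lines differed by 0.25 (95% interval -0.03 to 0.52, adjusted p = 0.101), which became a call without HD-het replicate 1 (0.34, adjusted p = 0.0479) or without HD-homo replicate 2 (0.35, adjusted p = 0.0215).

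Nqo1 and Hmox1 had the largest differences between lines among the 10 genes. Nqo1 encodes NAD(P)H quinone oxidoreductase, which reduces quinones with a pair of electrons and is widely used as a readout of NRF2. Its levels were 81.2, 76.2 and 70.7 CPM in control cells, 33.8, 35.0 and 35.2 CPM in HD-het cells and 164, 134 and 217 CPM in HD-homo cells. The HD-het libraries were all under, and the HD-homo libraries all above, the control range. Nqo1 fell to 0.456 times the control level in HD-het cells (log2 fold change -1.13, SE 0.141, adjusted p = 3.2e-05) and rose 2.26-fold in HD-homo cells (log2 fold change 1.17, SE 0.138, adjusted p = 2.3e-05). The HD lines differed 4.96-fold (log2 fold change 2.31, SE 0.144, adjusted p = 8.2e-08).

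Hmox1 encodes haem oxygenase 1, the stress-inducible enzyme that opens haem to biliverdin, iron and carbon monoxide. Its levels were 69.7, 68.8 and 59.0 CPM in control cells, 246, 239 and 146 CPM in HD-het cells and 154, 177 and 285 CPM in HD-homo cells. All HD libraries were above all control libraries, and the ranges of the HD lines overlapped. Hmox1 rose 3.20-fold in HD-het cells (log2 fold change 1.68, SE 0.236, adjusted p = 8.1e-05) and 3.12-fold in HD-homo cells (log2 fold change 1.64, SE 0.235, adjusted p = 1.1e-04).

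The difference of Hmox1 between the HD lines was -0.03 on the log2 scale (95% interval -0.53 to 0.47, adjusted p = 0.904) and depended on the libraries. Without the 3 libraries numbered 3 it was -0.55 and was called (adjusted p = 1.6e-04), and without single libraries it ran from -0.34 to 0.14 with no call. Replicate 3 was the lowest of HD-het and the highest of HD-homo cells.

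**Figure D2:**
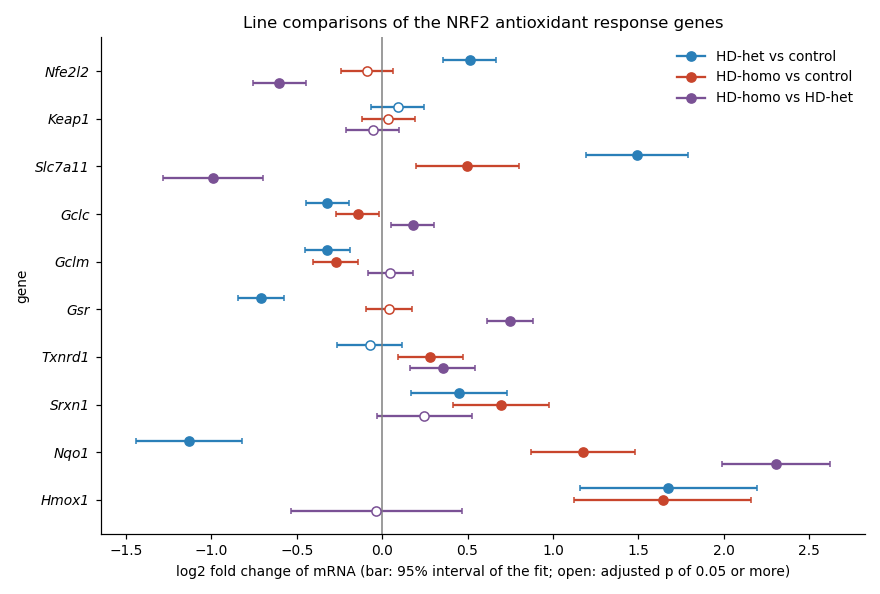
The log2 fold change of each gene in the 3 comparisons, with bars for the 95% interval of the fit across all genes. Filled circles have an adjusted p under 0.05 and open circles do not. Nqo1 lies at -1.13 in HD-het and 1.17 in HD-homo cells against control, and the intervals of Keap1 include 0 in each comparison.

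Of the 10 genes, 8 were called between HD-het and control cells, 4 higher and 4 lower, against 65.1% of all tested genes (33.8% higher, 31.4% lower). In HD-homo cells 7 were called against control, 5 higher and 2 lower, against 58.6% (29.6% higher, 28.9% lower). Between the HD lines 6 were called, 4 higher in HD-homo cells and 2 lower, against 71.6% (36.0% higher, 35.6% lower). Where a call also needed a log2 fold change of 1 or more in size, Slc7a11 and Hmox1 rose and Nqo1 fell in HD-het cells, which is 3 of 10 members against 18.4% of all genes. Nqo1 and Hmox1 rose in HD-homo cells, against 19.1%, and Nqo1 was the only member between the HD lines, against 24.3%. The libraries did not overlap for 8, 8 and 6 of the genes, against 74.0%, 65.3% and 72.8% of all genes. Without the 3 libraries numbered 3 the calls were 8, 6 and 6, and between the HD lines then 3 higher and 3 lower. The shares were thus not far from those of all genes, most of which passed the test.

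The median log2 fold change of the 10 genes was 0.01 in HD-het cells, 0.16 in HD-homo cells and 0.11 between the HD lines, beside 0.03, 0.01 and 0.00 over all tested genes. The median size of the change, without its sign, was 0.48, 0.28 and 0.30, beside 0.40, 0.32 and 0.46. By size, Hmox1 and Slc7a11 exceeded 89.6% and 87.9% of all genes in HD-het cells, Nqo1 and Hmox1 exceeded 82.7% and 87.0% in HD-homo cells, and Nqo1 exceeded 89.4% between the HD lines.

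The replicates of Hmox1 were less uniform than those of most genes in each line. The SD of log2 CPM of Hmox1 was 0.133 in control, 0.422 in HD-het and 0.464 in HD-homo cells, above 78.4%, 98.7% and 97.4% of all genes. For Nqo1 it was 0.0987, 0.0317 and 0.347, so the HD-homo replicates varied most, and for Nfe2l2 it was 0.00871, 0.123 and 0.0853. HD-het replicate 3 was the lowest of its line for Nfe2l2, Slc7a11, Srxn1 and Hmox1, and HD-homo replicate 3 the highest of its line for Slc7a11, Gclc, Gclm, Txnrd1, Nqo1 and Hmox1.

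Levels of different genes were compared as reads per kilobase of exon per megaread (RPKM), with the exon length of each gene in GENCODE M21 on GRCm38. Txnrd1, on chromosome 10 (82833951 to 82897712, plus strand), had the highest level in control cells, 96.8 RPKM, followed by Nqo1 with 49.0, Gsr with 45.3, Hmox1 with 37.6 and Srxn1 with 35.1 RPKM. Gclc had 25.2, Nfe2l2 22.9, Gclm 13.8, Keap1 9.36 and Slc7a11 1.01 RPKM. In HD-het cells Hmox1 came first with 120.1 RPKM, above Txnrd1 with 92.1, and Nqo1 stood at 22.3 RPKM. In HD-homo cells Txnrd1 and Hmox1 had 117.7 and 117.5 RPKM and Nqo1 reached 111 RPKM. The spread of the replicates given above for these 3 genes in HD-homo cells was larger than the gaps between them. Exon length counts all annotated exons, 13922 bases for Slc7a11, so these levels depend on which exons a line uses.

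Nfe2l2 lies on chromosome 2 (75675513 to 75704641, minus strand), Keap1 on chromosome 9 (21229730 to 21239361, minus strand), Nqo1 on chromosome 8 (107388225 to 107403206, minus strand) and Hmox1 also on chromosome 8 (75093621 to 75100589, plus strand). Of the 50-base words in the transcripts, 3.92% of those of Gclm and 0.618% of those of Slc7a11 occurred in other genes as well, and none of those of the other 8, so few reads could be counted on a near-identical copy. Keap1, Slc7a11, Gclm and Txnrd1 overlap a gene on the opposite strand, and whether the counting used strand is not given in the sources used here. On the same strand, besides Eid3 at Txnrd1, Nfe2l2 overlaps Gm24996, Slc7a11 Gm37498 and Gm37692, Gclm Gm6061 and Gsr Gm24727. For Nfe2l2, Gsr and Txnrd1 no 50-base word is shared with these or other genes. For Slc7a11 and Gclm some reads could be split, which was not tested.

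By the correlation of log2 CPM over the 9 libraries, the genes most like Nfe2l2 among 9849 genes of at least 10 CPM were Adam10 (Pearson r 0.994), Lyst (0.991) and Fyco1 (0.989). They encode a membrane protease, a regulator of lysosome traffic and an adaptor for autophagosome transport. Adam10 averaged 157 ± 4.97, 224 ± 15.7 and 153 ± 8.31 CPM (SD, n = 3) in the order control, HD-het, HD-homo. Lyst averaged 24.0 ± 0.766, 42.2 ± 6.68 and 22.7 ± 1.97 CPM, and Fyco1 averaged 22.0 ± 0.503, 36.6 ± 3.27 and 21.2 ± 0.476 CPM. The points share their libraries and fall into the 3 lines, and 800 genes had an r over 0.9.

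A further 116 genes of the pathway, in 8 lists by role, were examined beside the members, and 105 of them passed the filter. Of these, 76 were called in HD-het cells against control, 40 higher and 36 lower, and 66 in HD-homo cells, 36 higher and 30 lower, while 91 were called between the HD lines, 52 higher and 39 lower in HD-homo cells. Over all tested genes the shares called were 65.1%, 58.6% and 71.6%, against which these counts and those of each list are to be read. The median log2 fold change of the 105 genes was 0.04 in HD-het cells, 0.03 in HD-homo cells and 0.17 between the HD lines.

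Genes that act on the breakdown of NRF2, some promoting and some opposing it, changed in both directions. Of 10 genes, 2 rose and 4 fell in HD-het cells, and 2 rose and 4 fell in HD-homo cells, with medians of -0.04 and -0.07. Because the list mixes both roles, these counts and medians give no direction for NRF2 breakdown. Sqstm1, which encodes p62, a receptor that draws KEAP1 into autophagy, was at 369, 371 and 408 CPM in control cells, 612, 599 and 501 CPM in HD-het cells and 307, 316 and 334 CPM in HD-homo cells. It rose 1.49-fold in HD-het cells (log2 fold change 0.58, adjusted p = 7.4e-05) and fell to 0.834 times in HD-homo cells (-0.26, adjusted p = 0.0152), the latter call being lost without control replicate 3 (-0.22, adjusted p = 0.0627) or HD-homo replicate 1 (-0.24, adjusted p = 0.0522).

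Gsk3b, a kinase that marks NRF2 for the other route of degradation, through the F-box protein BTRC, rose in HD-het cells (0.27, adjusted p = 0.00158) and fell in HD-homo cells (-0.19, adjusted p = 0.0124), and the HD-homo call was lost without HD-homo replicate 1 (-0.15, adjusted p = 0.0504) or without the 3 libraries numbered 3 (-0.18, adjusted p = 0.0604). Its relative Gsk3a fell in HD-homo cells (-0.55, adjusted p = 2.2e-05) and stood at -0.09 in HD-het cells (adjusted p = 0.212). Dpp3, whose product competes with NRF2 for KEAP1, fell in HD-het cells (-0.31, adjusted p = 4.7e-04) and rose in HD-homo cells (0.20, adjusted p = 0.00828).

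Of the ligase itself, Cul3 was not called against control in either HD line, at 0.12 (adjusted p = 0.0799) and -0.02 (adjusted p = 0.743), though it was called in HD-het cells without control replicate 2 (0.17, adjusted p = 0.0451) and in a fit blocked on replicate number (0.12, adjusted p = 0.0345). Rbx1, its RING subunit, fell to 0.596 times in HD-het cells (-0.75, adjusted p = 7.0e-07), and Nedd8, the modifier that activates cullins, also fell there (-0.30, adjusted p = 0.00861). In HD-homo cells Rbx1 stood at 0.09 (adjusted p = 0.206) and Nedd8 at 0.09 (adjusted p = 0.394). Syvn1, another ubiquitin ligase of NRF2, fell in both lines (-0.45, adjusted p = 1.1e-04, and -0.25, adjusted p = 0.00785). Btrc was not called against control in either line, and Fbxw11, its relative, rose in HD-homo cells (0.17, adjusted p = 0.0110).

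Among the transcription factors that pair or compete with NRF2, and the coactivators, 9 of 10 genes were tested, and Nfe2 was not. In HD-het cells 1 rose and 6 fell, with a median of -0.37, and in HD-homo cells 2 rose and 2 fell, with a median of 0.02. Bach1, which represses Hmox1 and other genes with the same element until haem removes it, was at 36.9, 37.8 and 37.6 CPM in control cells, 28.2, 29.4 and 29.4 CPM in HD-het cells and 63.3, 73.0 and 68.5 CPM in HD-homo cells. The 3 lines were fully apart. Bach1 fell to 0.775 times the control level in HD-het cells (-0.37, adjusted p = 4.4e-04) and rose 1.82-fold in HD-homo cells (0.87, adjusted p = 5.2e-07), and Hmox1 rose in both of these lines.

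Nfe2l1, the relative of Nfe2l2 that controls proteasome genes, was at 294, 286 and 289 CPM in control cells, 440.1, 402 and 389 CPM in HD-het cells and 258 CPM in each HD-homo library. Nfe2l1 rose 1.42-fold in HD-het cells (0.50, adjusted p = 1.4e-05) and fell to 0.891 times in HD-homo cells (-0.17, adjusted p = 0.0252), a call lost without HD-homo replicate 1 (-0.17, adjusted p = 0.0566) or without control replicate 1, 2 or 3 (-0.16, -0.18 and -0.17). Nfe2l3 had few counts, 14, 13 and 14 in control, 7, 2 and 5 in HD-het and 50, 73 and 29 in HD-homo cells, and it fell in HD-het cells (-1.62, adjusted p = 0.00975) and rose in HD-homo cells (1.68, adjusted p = 8.5e-04).

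Of the small MAF partners, Maff fell in HD-het cells (-0.63, adjusted p = 5.2e-05), Mafk fell in HD-homo cells (-0.74, adjusted p = 4.2e-04), and Mafg was not called in either. Bach2 and the coactivators Ep300 and Crebbp fell in HD-het cells (-0.62, adjusted p = 0.00348; -0.60, adjusted p = 1.2e-06; and -0.23, adjusted p = 0.0321). The call on Crebbp was lost without control replicate 1 or 3 (-0.23 and -0.20) or without HD-het replicate 2 or 3 (-0.20 and -0.19). None of these 3 was called in HD-homo cells, where Bach2 stood at 0.03 (adjusted p = 0.869), Ep300 at 0.02 (adjusted p = 0.724) and Crebbp at -0.07 (adjusted p = 0.513).

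**Figure D3:**
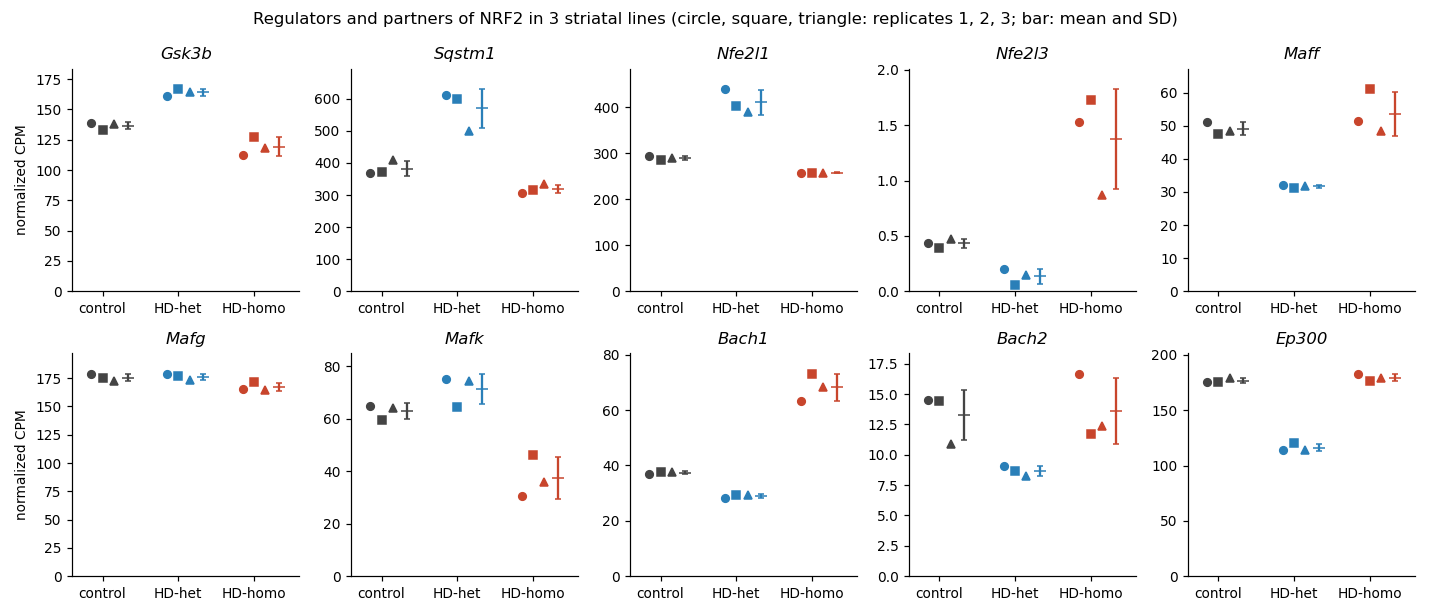
Normalized CPM of 10 regulators and partners of NRF2 in the 3 lines, on linear axes that start at 0 and differ between panels. Circles, squares and triangles are replicates 1, 2 and 3, and the bar is the mean and SD. Sqstm1 and Nfe2l1 are highest in HD-het cells, with means of 571 and 410.4 CPM, and Bach1 is highest in HD-homo cells, with 68.3 CPM.

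The other glutathione genes, 19 of 26 tested, split in HD-het cells into 7 that rose and 5 that fell and in HD-homo cells into 4 and 5. Chac1, which encodes an enzyme that breaks glutathione down, rose 3.76-fold in HD-het cells (1.91, adjusted p = 0.00126). In HD-homo cells it was at 12.1, 9.28 and 35.8 CPM beside 9.55 to 9.90 CPM in control cells, and was not called (0.96, adjusted p = 0.0562). That value was set by HD-homo replicate 3, and leaving out HD-homo replicate 2 or 1 made it a call (adjusted p = 0.00545 and 0.0286). Gsto1 fell to 0.310 times in HD-het cells (-1.69, adjusted p = 1.5e-07), Mgst2 rose 9.48-fold in HD-homo cells from 0.668 to 6.33 CPM (3.25, adjusted p = 3.6e-07), and Mgst3 fell there (-1.11, adjusted p = 8.0e-05). These 3 encode a glutathione transferase of the omega class and a pair of microsomal ones.

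In the thioredoxin and peroxiredoxin list, 12 of 13 genes were called in HD-het cells, 5 higher and 7 lower, and 8 in HD-homo cells, 2 higher and 6 lower, where 65.1% and 58.6% of all tested genes were called. Txn1, thioredoxin itself and the substrate of Txnrd1, fell to 0.494 times in HD-het cells (-1.02, adjusted p = 6.1e-07) and to 0.840 times in HD-homo cells (-0.25, adjusted p = 0.0128), the latter being lost without control replicate 3 (-0.19, adjusted p = 0.0569). Txnip, the inhibitor of thioredoxin, rose 3.36-fold in HD-het cells (1.75, adjusted p = 1.3e-04). In HD-homo cells Txnip was at 45.6, 37.8 and 94.3 CPM against 37.6 to 40.3 CPM in control cells (0.59, adjusted p = 0.0736), replicate 3 again being the high library, and it was called without HD-homo replicate 2 (0.83, adjusted p = 0.00733) or 1 (0.74, adjusted p = 0.0418). Txnrd2, the mitochondrial reductase, fell in both HD lines (-0.83, adjusted p = 1.3e-04, and -1.26, adjusted p = 6.9e-06), while the cytosolic Txnrd1 was not called in HD-het cells and rose in HD-homo cells.

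Of 9 genes for NADPH supply, 5 rose and 3 fell in HD-het cells and 6 rose and 1 fell in HD-homo cells, with medians of 0.28 and 0.27. Taldo1, transaldolase, rose in HD-het cells (0.78, adjusted p = 7.1e-07) and fell in HD-homo cells (-0.44, adjusted p = 6.8e-05), and G6pdx, glucose-6-phosphate dehydrogenase, did the reverse (-0.43, adjusted p = 1.0e-04, and 0.24, adjusted p = 0.00552). H6pd, its counterpart in the endoplasmic reticulum, rose in both (0.29, adjusted p = 0.00562, and 0.91, adjusted p = 1.4e-06).

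In the haem and iron list of 10 genes, 4 rose and 3 fell in HD-het cells and 4 rose and 4 fell in HD-homo cells. Blvra, biliverdin reductase, which acts on the product of Hmox1, rose 1.39-fold in HD-het cells and 2.11-fold in HD-homo cells (log2 fold changes 0.48, adjusted p = 3.9e-05, and 1.08, adjusted p = 5.0e-08). Tfrc, the transferrin receptor, fell in both (-1.24, adjusted p = 2.8e-07, and -0.47, adjusted p = 4.4e-04). Pir, which encodes the iron-binding protein pirin, had 1, 0 and 2 counts in control cells and averaged 7.60 and 4.99 CPM in HD-het and HD-homo cells, at least 80.3-fold and 52.8-fold higher when control is set to the floor of 3 counts per library. Ftl1, ferritin light chain, fell in HD-homo cells (-0.48, adjusted p = 4.6e-05), but 50.9% of its 50-base words occur in other genes, so this value is uncertain.

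Among the genes for drug and quinone metabolism and efflux, 12 of 23 tested rose and 5 fell in HD-het cells, and 10 rose and 4 fell in HD-homo cells, with medians of 0.33 and 0.29. Akr1c14, an aldo-keto reductase, rose 5.33-fold in HD-het cells (2.41, adjusted p = 1.8e-07) and stood at 0.02 in HD-homo cells (adjusted p = 0.930), while Akr1b3, aldose reductase, fell in HD-het cells (-0.88, adjusted p = 1.2e-05). Adh7, an alcohol dehydrogenase with 6 or 7 counts in the control libraries, rose in both (4.21, adjusted p = 3.4e-06, and 5.29, adjusted p = 3.1e-07). Osgin1, a growth inhibitor induced by oxidative stress, rose in HD-het cells (0.36, adjusted p = 0.0173) and fell to 0.221 times in HD-homo cells (-2.17, adjusted p = 7.3e-08), and the HD-het call was lost without HD-het replicate 1 (0.21, adjusted p = 0.0867) or control replicate 2 (0.34, adjusted p = 0.0526).

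The last list held 13 antioxidant enzymes that were not picked as NRF2 targets, 12 of them tested, for comparison. In HD-het cells 4 rose and 3 fell and in HD-homo cells 6 rose and 4 fell, with medians of 0.05 and 0.14. Cat, catalase, rose 2.37-fold in HD-het cells and 2.36-fold in HD-homo cells (1.24, adjusted p = 6.6e-08, and 1.24, adjusted p = 4.1e-08). Prdx3, the mitochondrial peroxiredoxin, fell in both (-0.81, adjusted p = 9.1e-07, and -0.32, adjusted p = 9.9e-04). Sod3, extracellular superoxide dismutase, rose in HD-het cells (0.24, adjusted p = 0.0313) and fell in HD-homo cells (-0.92, adjusted p = 4.8e-06), and its HD-het call was lost without HD-het replicate 3 (0.17, adjusted p = 0.122) or without control replicate 1, 2 or 3 (0.25, 0.25 and 0.21).

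**Figure D4:**
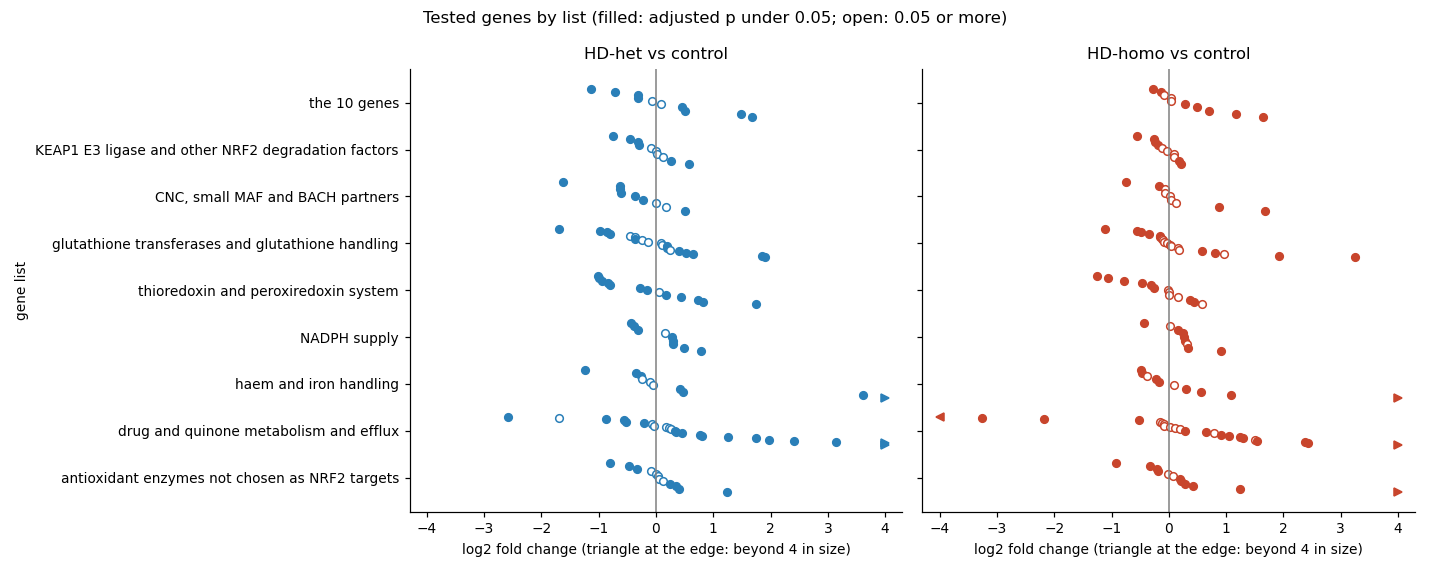
The log2 fold change of every tested gene against control in HD-het cells on the left and HD-homo cells on the right, by list, with the 10 genes on top. Filled points have an adjusted p under 0.05, open points do not, and triangles at the edge lie beyond 4 in size. Each list has points on both sides of 0 in both comparisons, and the genes for NADPH supply and for drug and quinone metabolism have medians of 0.27 to 0.33.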

How the data were processed

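RNA-seq libraries of the 3 lines, 3 each, were analysed. The deposited values are counts of reads per gene symbol, not normalized, which the authors made from poly(A)-selected, directional libraries. The submitters' processing notes name cutadapt, Bowtie 1.1.2, RSEM 1.3.0, DESeq2, GRCm38.p5 and mm10 without their roles, so the whole numbers may be rounded estimates. The analysis used edgeR 4.0.16 under R 4.3.3 (filterByExpr, minimum count 10, TMM, glmQLFit with 1 mean per line over all 9 libraries), with DESeq2 1.42.0 as an alternative. The steps were tested on simulated data in which only a small share of genes was changed, in HD-homo cells alone. That setting does not cover differences as broad as those found between these lines. Intervals are 95%, and floors cover counting error only. RPKM used GENCODE M21 exon lengths, and likeness to Nfe2l2 used log2(CPM + 0.5). The genes named are the 10 members, all regulators and partners, the highest and lowest gene of at least 5 CPM in each other list against control, and the 3 most like Nfe2l2; Eid3 was added after its values were seen. Members and lists were chosen with earlier results of these data known. Alternatives were DESeq2's size factors, library totals, DESeq2's test, no filter, 10 counts in every library, only the lines compared, a prior count of 2, a replicate block and leaving out each library. Leaving out the 3 libraries numbered 3 was chosen after seeing the data.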

Additional observations from a re-analysis of the deposited data

Results flagged for a closer look

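Of the genes named in the text, those whose HD-het and HD-homo cells lay on opposite sides of control, with all 3 comparisons past the threshold of edgeR's quasi-likelihood test, are given here with the log2 fold change of HD-homo against HD-het cells, which tests the difference itself. Higher in HD-homo cells were the member Nqo1, at 2.31, and Bach1 at 1.24, Dpp3 at 0.52, G6pdx at 0.67 and, from few counts, Nfe2l3 at 3.30. Lower in HD-homo cells were Gsk3b at -0.46, Sqstm1 at -0.84, Nfe2l1 at -0.67, Taldo1 at -1.22, Osgin1 at -2.53 and Sod3 at -1.16. The cell-type marker levels of the lines differed too, and their part in these differences was not tested.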

How the results depend on the processing

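No count of calls in both directions together moved by more than 1.5 times under 17 alternatives. By direction, the members lower in HD-homo cells than in control went from 2 to 1 with library totals, unfiltered, with a minimum of 10 counts per library, when the third line was left out of the fit, and without control replicate 1 or 2, HD-het replicate 1 or HD-homo replicate 1 or 2, each time by the loss of Gclc. Those higher went from 5 to 4 without control replicate 3, HD-homo replicate 3 or the 3 libraries numbered 3, by the loss of Txnrd1. Between the HD lines the members higher in HD-homo cells went from 4 to 5 without HD-homo replicate 2, by the gain of Srxn1, and to 3 without the 3 libraries numbered 3. Of the members, 8 were called in HD-het cells throughout, 6 to 7 in HD-homo cells and 6 to 7 between the HD lines, and of the pathway genes 68 to 81, 58 to 69 and 81 to 91. Deviations from the line mean correlated weakly but positively between same-numbered libraries. For replicates 1 to 3 the correlation was 0.0682, 0.245 and 0.186 for HD-het with control. It was 0.0398, 0.0382 and 0.0226 for HD-homo with control and 0.0322, 0.202 and 0.154 for the HD lines. Between differently numbered libraries it ran from -0.251 to 0.0842. The labels do not say what the numbers stand for, and the main fit did not use them. Not every library correlated best with its own number. With the replicate block 9160, 8372 and 9938 of all genes were called, beside 8797, 7910 and 9666 without it. The block gave 8, 7 and 6 members, and Cul3 was called in HD-het cells (0.12, adjusted p = 0.0345). Changes of sign were seen in genes that were not called. Against control in HD-het cells Btrc was at -0.0068 and Mafg at -0.0081 with library totals, Mafg at -0.00042 with no filter, and leaving out 1 library gave -0.039 to 0.074 for Btrc and -0.0068 to 0.019 for Mafg. In HD-homo cells leaving out 1 library gave -0.0080 to 0.098 for Keap1, -0.0040 to 0.089 for Gsr, -0.061 to 0.020 for Cul3, -0.14 to 0.13 for Bach2, -0.081 to 0.17 for Akr1c14 and -0.14 to 0.0099 for Akr1b3. Without the 3 libraries numbered 3, Bach2 was at -0.033, Crebbp at 0.030 and Akr1c14 at -0.15 there. Between the HD lines Keap1 was at 0.0047 without these 3, and leaving out 1 library gave -0.010 to 0.085 for Gclm and -0.34 to 0.14 for Hmox1. The cause of these changes was not tested. Calls on genes of a few counts, such as Nfe2l3, are limited by depth.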

Other observations

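Htt, the gene that carries the knock-in, was itself unequal between the lines, at 104, 103 and 93.0 CPM in control cells, 61.8, 64.0 and 61.1 CPM in HD-het cells and 19.7, 21.7 and 19.2 CPM in HD-homo cells. Htt fell to 0.623 times the control level in HD-het cells (edgeR's quasi-likelihood test, adjusted p = 4.4e-06) and to 0.202 times in HD-homo cells (adjusted p = 3.4e-10). None of the 10 members had mean levels in the order of Htt, control over HD-het over HD-homo: Nfe2l2 was lowest in HD-homo cells but highest in HD-het cells, and the other 9 were lowest in control or in HD-het cells. Srxn1 alone had the reverse order, with means of 98.9 CPM in control, 135 CPM in HD-het and 160 CPM in HD-homo cells. Its libraries overlapped between the HD lines, which were not called different.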
